A study of Danio rerio with 24 samples.

Results

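The genes described here are the forkhead factors of the FoxO class and 4 genes often followed with them when nutrients or growth signals are short: foxo1a, foxo1b, foxo3a, foxo3b, foxo4, mxi1, sesn1, sesn3 and txnipa. They were picked by symbol, ignoring case, and all 9 were found once each among the 18987 genes of the deposited table. The set was drawn up with earlier results of these data known, so that its make-up is not a finding.

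The samples were heart ventricles of adult wild-type zebrafish, with RNA pooled from 3 or 4 fish per sample. Ventricles injured with a frozen probe (cryoinjury) were taken at 7 days post-injury (dpi) and at 14 dpi, either after swimming exercise or at rest, with 4 samples in each of these groups. The series has 24 samples in all, 16 of them cryoinjured and 8 sham-operated and non-exercised at the same time points. The fish swam in a tunnel after the injury, and the study asked how it alters gene expression in the regenerating ventricle. A ventricle is a mixture of cell types, and in such bulk RNA fewer cells of a type and less RNA per cell cannot be told apart.

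FoxO proteins are transcription factors that sit downstream of insulin and growth factor signals. When these signals are strong, the kinase Akt phosphorylates FoxO proteins and they leave the nucleus, and when nutrients or growth factors are scarce they stay in the nucleus and turn on genes for cell cycle arrest, autophagy, protein breakdown and resistance to oxidative stress. In mammalian hearts they are known for restraining cardiomyocyte growth and for driving atrophy genes. Zebrafish carry FoxO1 and FoxO3 each as a pair of paralogs, marked a and b.

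The one value per gene that could be used was the authors' deposited mean normalized count, the number of reads assigned to a gene, scaled for sequencing depth and averaged over the samples of their model. No column gives the counts of single samples, so levels in exercised and non-exercised ventricles, their spread and any test between them were not analysed here. The remaining value columns of the table hold the authors' own comparisons and were not used. The paper's methods list only the 16 cryoinjured samples for RNA sequencing. The sources do not say which samples entered the mean. The low end of the column bears on this. If the lowest mean above 0, which was 0.0481, is 1 read in the deepest sample, then any mean below 0.0962, which is 2 times that value, must also be 1 read in 1 sample. There were 9 distinct means in that range, up to 0.0822, and on this reading each stands for a sample of its own. At least 9 samples were then averaged, with size factors (the scaling for depth) that spanned at least 1.71-fold. With 4 samples per group, such a mean covers at least 3 of the 6 groups and mixes conditions. The mean counts of all listed genes summed to 11824275.

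The defining genes of heart muscle were abundant, as the label heart ventricle requires. The 4 cardiomyocyte markers had mean counts between 37309 for the ventricular myosin gene vmhc and 163295 for the myosin light chain gene myl7. The atrial myosin gene myh6 was listed at 3281, a higher count than the 3197 of foxo3b. The authors removed the atrium at dissection, and whether atrial tissue remained was not tested. Of the 2 liver markers fabp10a was listed at 5.09 and apoa1b at 5.996. Other cells of the ventricle were represented as well, with mean counts between 1017 and 3550 for the 3 endothelial markers, of 25133 and 22173 for the haemoglobin genes hbaa1 and hbba1, the second listed as ba1, and of 12777 for the collagen gene col1a1a. The epicardial genes tcf21 and tbx18 and the macrophage gene mpeg1.1 lay between 212 and 250, and the neutrophil genes mpx and lyz had 16.3 and 43.2. The creatine kinase gene ckma, listed as a marker of skeletal muscle but also active in heart muscle, had 26718, and the fast skeletal muscle gene mylz2, listed as mylpfa, had 161. Which of these cells held the FoxO reads was not tested.

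Mean counts of the 9 genes ranged between 75.7 for foxo1b and 7424 for txnipa, with a median of 1005, beside a median of 79.7 over all 18978 listed genes above 0. Of the 9 genes, 8 lay above that median and foxo1b just below it. Since the set was drawn up with earlier results of these data known, that choice may bear on these levels, which was not tested. The set held 0.162% of all summed mean counts. These are numbers of reads, which grow with transcript length as well as with the amount of RNA. Transcript lengths were not used here, so the order of counts is no order of RNA levels between genes.

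**Figure D1:**
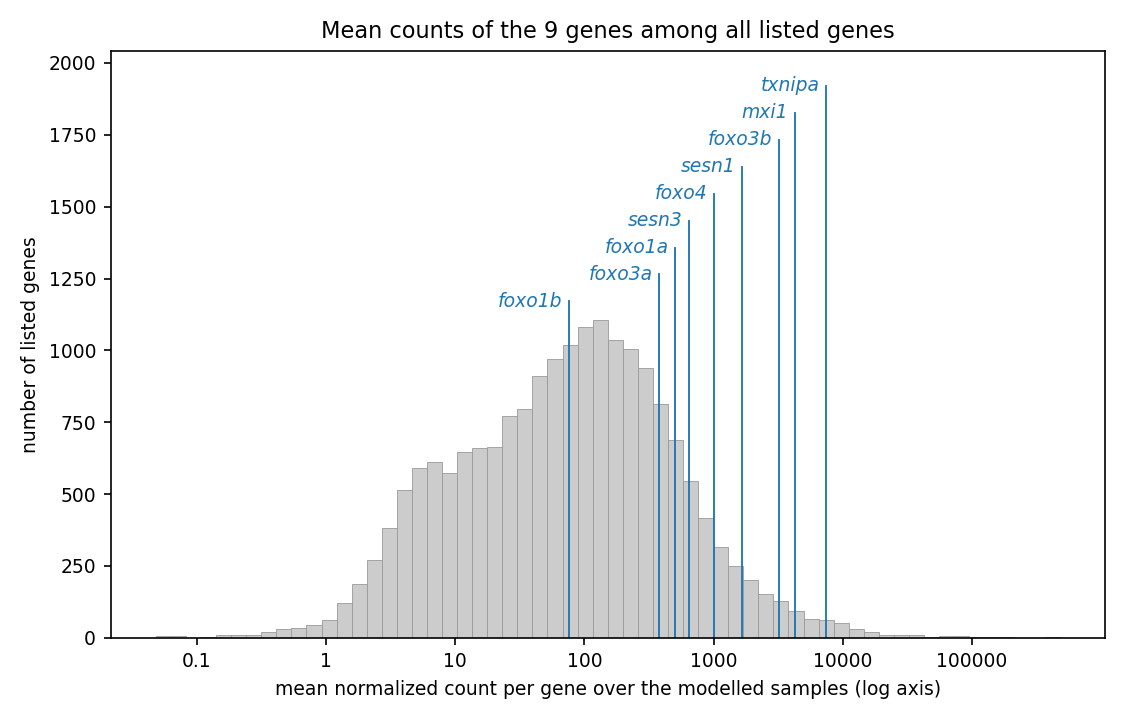
Histogram of the authors' mean normalized counts of all listed genes above 0 (grey bars, log axis, number of genes on the y axis), with a blue line for each of the 9 genes. The line of foxo1b falls in the middle of the distribution at 75.7, and the other 8 lie to its right, up to 7424 for txnipa.

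Among the FoxO factors, foxo3b had by far the most reads, with a mean count of 3197 (ENSDARG00000042904). This was above the count of 97.5% of listed genes. In mammals FoxO3 is among the forms tied to autophagy and muscle atrophy. Its paralog foxo3a (ENSDARG00000023058) had a mean count of 381, so that foxo3b had 8.39 times its reads. The next FoxO gene by reads was foxo4, listed in capitals as FOXO4 (ENSDARG00000055792), with a mean count of 1005.

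For FoxO1, which in mammals controls liver glucose output and endothelial growth, the paralogs were also unequal. The foxo1a gene (ENSDARG00000099555) had a mean count of 506, at the 85.6th percentile of listed genes. The foxo1b gene (ENSDARG00000061549) had 75.7, at the 49.1th percentile, and foxo1a thus had 6.68 times its reads. In each of these pairs one copy held most of the reads, the b copy for FoxO3 and the a copy for FoxO1.

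The 5 FoxO genes summed to a mean count of 5164. Of these reads, foxo3b held 61.9%, foxo4 19.5%, foxo1a 9.80%, foxo3a 7.37% and foxo1b 1.47%. The FoxO3 pair thus accounted for 69.3% and the FoxO1 pair for 11.3%. A further family gene listed as FOXO6, whose mammalian counterpart is best known from the brain, had a mean count of 4.99, at the 9.92th percentile.

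**Figure D2:**
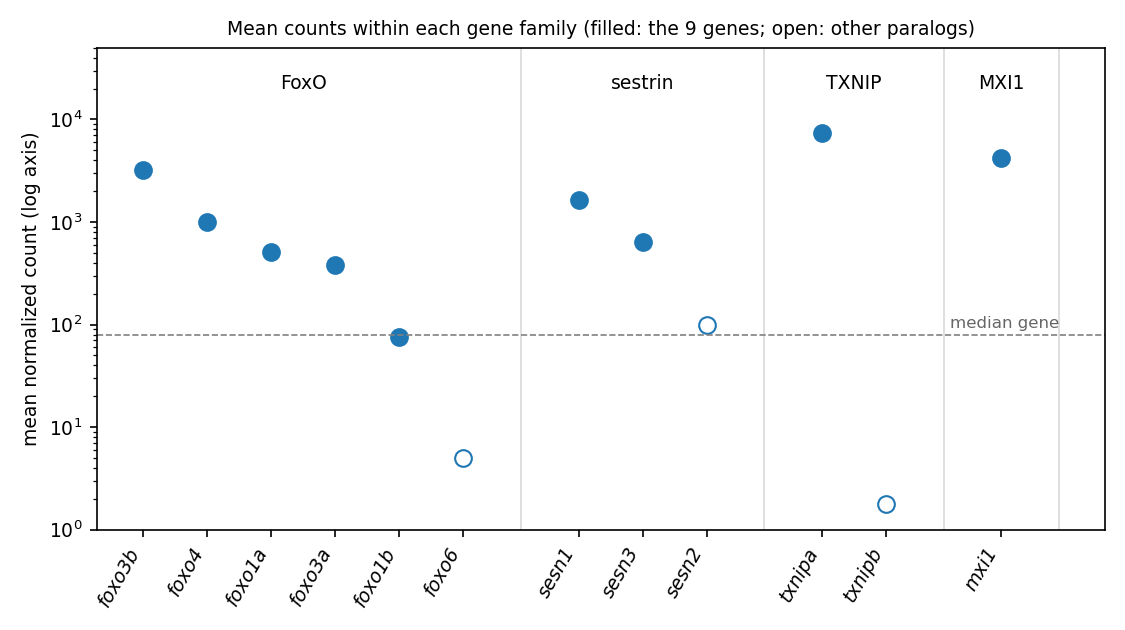
Authors' mean normalized counts (log axis) by gene family, with filled points for the 9 genes and open points for other paralogs listed in the same table; the dashed line is the median gene at 79.7. One copy of each pair stands well above the other: foxo3b over foxo3a, foxo1a over foxo1b and txnipa over txnipb.

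The gene with the most reads in the set was txnipa (ENSDARG00000036107), with a mean count of 7424, above 99.0% of listed genes. It encodes thioredoxin-interacting protein, an alpha-arrestin that binds thioredoxin and limits glucose uptake, and in mammals it is both a FoxO target and a gene induced by glucose. Its paralog txnipb was close to the bottom of the table with a mean count of 1.79, at the 2.25th percentile. No other pair of paralogs described here differed as widely, the reads of txnipa being 4154 times those of txnipb. Of the other alpha-arrestins, arrdc3a, arrdc3b, arrdc2 and arrdc1b had mean counts of 3854, 1215, 766 and 165, and the thioredoxin gene txn had 523.

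The mxi1 gene (ENSDARG00000040884) had a mean count of 4229, above 98.2% of listed genes. Its product pairs with MAX and opposes MYC at shared DNA sites, and in mammals FoxO3 raises it. Within the MAX network, mxi1 had more reads than any of the 12 other genes looked at, whose mean counts ranged between 2.62 for mlxipl and 1418 for mycb. The common partner max had 804, and the related repressors mxd4, mxd3 and mxd1 had 290, 116 and 52.9.

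Sestrins are stress-induced proteins that hold back the growth kinase complex mTORC1 through the GATOR complexes. In mammals sesn1 and sesn3 are FoxO targets. The sesn1 gene (ENSDARG00000020693) had a mean count of 1656, at the 95.3th percentile. The sesn3 gene (ENSDARG00000015822) had 643, at the 88.5th percentile. Their relative sesn2, known in mammals chiefly as a target of the integrated stress response, had 99.8. All 11 listed genes of the sestrin and GATOR list, which includes sesn2, had fewer reads than sesn3, ranging between 77.5 for nprl2 and 485 for sec13.

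Genes of the wider pathway were taken from fixed lists. Of 22 genes that carry insulin and energy signals to FoxO, 21 were listed, and 20 of them lay above the median of all genes. Their mean counts ranged between 76.0 for the kinase gene akt3a and 3316 for irs1, which encodes an adaptor of the insulin receptor, and the list's median was 412. All 25 genes on a list of mammalian FoxO targets were listed, 20 of them above the median of all genes, with a list median of 368.

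Among those targets, the most reads belonged to pdk4, which encodes a kinase that inhibits pyruvate dehydrogenase, with a mean count of 4300. The atrophy ubiquitin ligase genes trim63a, trim63b and fbxo32 had 2275, 1137 and 306, and the antioxidant enzyme gene sod2 had 3235. At the other end stood igfbp1b with 5.13, although its paralog igfbp1a had 2459. The gluconeogenic gene pck1 had 13.1 and the apoptosis gene bcl2l11 had 20.0. A single mean per gene says nothing of whether any of these genes followed FoxO between samples.

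**Figure D3:**
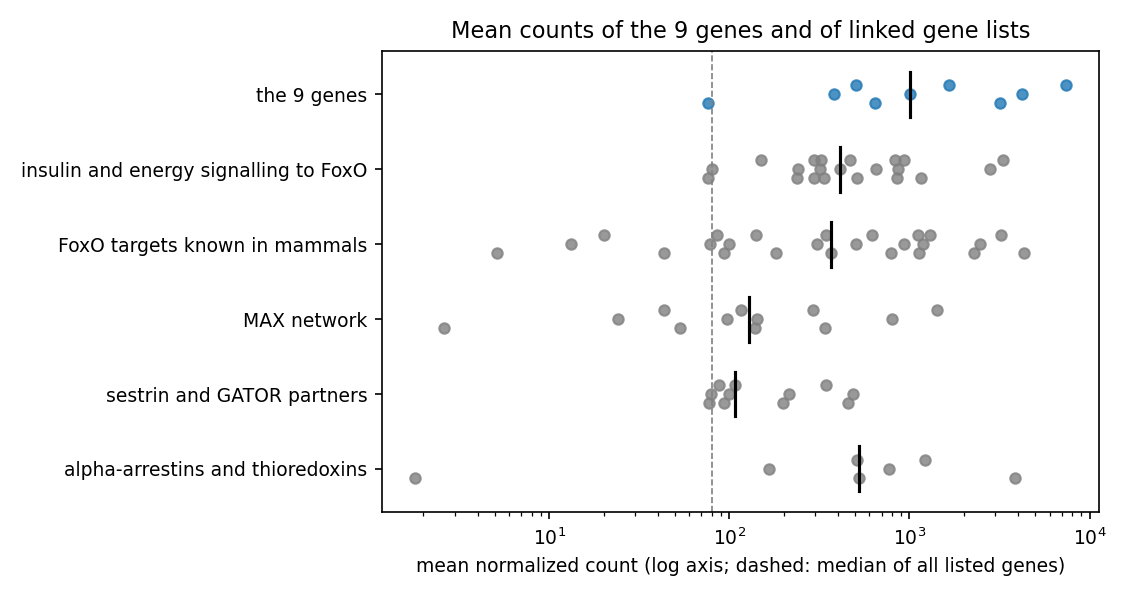
Authors' mean normalized counts (log axis) of the 9 genes (blue) and of the listed genes of 5 linked lists (grey), 1 point per gene, spread vertically only to keep points apart; black bars are list medians and the dashed line is the median of all listed genes at 79.7. The median of the 9 genes is 1005 and that of the sestrin and GATOR list 108.

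Some of the FoxO and sestrin genes also lie near each other in the zebrafish genome. Gene order was taken by start position in the RefSeq annotation of GRCz12tu, a later build than the GRCz10 used for the reads. There sesn1 and foxo3b both lie on chromosome 20, with 2 protein-coding genes between them in that order, si:ch211-51a19.5 and armc2. The span of sesn1 overlaps both of these genes. The foxo4 gene on chromosome 14 is followed directly by a gene named sesn4, which was not matched in the deposited table. The other FoxO and sestrin genes that share a chromosome are far apart, with 632 protein-coding genes between foxo1a and sesn3 on chromosome 15 and 445 between foxo6b and sesn2 on chromosome 19. Beside mean counts of 1656 for sesn1 and 3197 for foxo3b, armc2 had 72.1, and si:ch211-51a19.5 was not matched in the deposited table. Other neighbours varied. On the far side of sesn1, cep57l1 had 32.4 and cd164 had 1628, and on the far side of foxo3b, snx3 had 416.

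Such neighbours could also bear on the counts, which was not tested. In GRCz12tu the spans of 6 of the 9 genes, taken whole and on either strand, overlap at least 1 other annotated gene. Among them are sesn1, which overlaps si:ch211-51a19.5 and armc2, and foxo1b, which overlaps fez1 and vps26bl. For foxo3b the overlapping genes are 2 long noncoding RNA genes only. The share over all genes was not computed, and overlaps in GRCz10, the build used for the reads, were not looked at. The spans of foxo3a, mxi1 and txnipa overlap none. The sources used here do not give how reads in overlapping genes, or reads shared by close paralogs, were assigned, so the counts of such genes are uncertain to that extent.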

How the data were processed

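Ventricle RNA was selected for poly-A, sequenced on an Illumina instrument and aligned by the authors to GRCz10. The submitters' processing notes name TopHat2 2.1.0, HTSeq 0.6.0 and DESeq2. The authors' deposited signal is the mean normalized count per gene, a read count divided by a size factor and averaged over the modelled samples. The other value columns hold the authors' comparisons of exercised and non-exercised ventricles (log2 fold changes with their errors and test statistics, raw and adjusted p-values, and linear fold changes for 7 and 14 dpi), and none was used.

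Genes were matched by listed symbol. Percentiles give the share of the 18978 genes above 0 with a lower mean count. The planned division by coding length, the protein alignments and the contrasts between exercised and non-exercised ventricles were not run. Lengths and protein sequences were not at hand, and no column gives counts per sample. The genes named are the 9 members, their paralogs and genes of the fixed lists: the lowest and highest of each, with further ones chosen after their values were seen. Members and lists were chosen with earlier results of these data known. The bound on the number of averaged samples was tested on simulated means, only for not exceeding their true number of samples. Whether the lowest mean of these data is 1 read in the deepest sample was not tested. The count behind the percentiles was tested on a fixed series of values. The other steps were not tested in this way. Python 3.11.15, numpy 2.4.6, pandas 2.3.3 and scipy 1.17.1 were used.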

Additional observations from a re-analysis of the deposited data

How the results depend on the processing

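Restricting the background to the 15560 genes with a mean count of at least 10 lowered every percentile, since it only removes genes below the members: foxo1a stood at 82.5, foxo1b at 37.9, foxo3a at 77.4, foxo3b at 97.0, foxo4 at 90.9, mxi1 at 97.8, sesn1 at 94.3, sesn3 at 86.0 and txnipa at 98.8. Counting FOXO6 in the FoxO sum, an alternative chosen after seeing the data, moved no share by as much as 1 percentage point. FOXO6 had a mean count of 4.99 beside a sum of 5164 and could hardly have moved them. This alternative is therefore no check on the shares. With older symbols and synonyms, akt1, castor1 and the markers hbba1 and mylz2 were also found and no member was added. The mean counts of akt1 and castor1, 61.6 and 43.3, lay below the lowest values given for their lists. Alternatives on coding or transcript length, on protein alignments and, for the contrasts with exercise, on normalization, low-count filters and replicates left out were not run. No paired analysis was possible because the table holds no values per sample. Without values per sample, counting error and the spread between samples are unknown.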
